A study of Mus musculus with 12 samples.

Results

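A set of 10 genes of the axon injury response was followed in the injured mouse retina: the transcription factors Atf3, Jun, Sox11, Stat3, Smad1, Cebpg, Mef2a and Creb5, and the kinases Map3k12, which encodes DLK, and Map3k13, which encodes LZK. They were taken by symbol, with no threshold on their values, and all 10 were among the 25655 genes counted. The study asked how fluvastatin and MBV act on the retina and optic nerve after optic nerve crush (ONC). Fluvastatin is a statin, an inhibitor of the cholesterol synthesis enzyme HMG-CoA reductase, and MBV are matrix-bound nanovesicles prepared from porcine urinary bladder. In every group, C57BL/6 mice aged 8 to 10 weeks (C57BL/6J and 8 weeks in the protocol text) had the left optic nerve crushed and received a single injection into the vitreous. The injection held PBS, fluvastatin, MBV, or fluvastatin with MBV, and RNA of the whole retina was sequenced 2 days after ONC in 3 samples per group. The combined treatment was not analysed here, because its columns of counts carry no library name, which leaves 9 libraries of 3 groups. No uninjured retina was included, so the values show how the 3 injured groups differ and not what the injury itself did to a gene.

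The labels number the libraries in 2 runs, 1 for PBS and the combined treatment and 1 for fluvastatin and MBV. MBV against fluvastatin is therefore a comparison within 1 run of library numbers. For each single treatment against PBS, the treatment and the run of numbers cannot be told apart. These numbers alone do not name a batch. Both comparisons with PBS also share the same 3 PBS libraries. Each library held 21349516 to 30992040 counts on genes, and the members had 296 to 6057 counts in a library. Levels are CPM, the counts of a gene scaled to a common library size after TMM adjustment. Differences are log2 fold changes from edgeR's quasi-likelihood test, called where the false discovery rate (FDR) over all genes tested was under 0.05. The labels do not say whether the 3 samples of a group came from separate animals, so p-values measure the spread between these samples. Nefl, a neurofilament gene and the most abundant of the retinal ganglion cell markers, averaged 345 CPM, and Ly6g, a neutrophil marker, had no count in any library. All 4 neutrophil markers together came to 0.341 to 0.758 CPM with PBS, 0.124 to 0.17 after fluvastatin and 0.229 to 1.89 after MBV. The highest of these sums was in MBV replicate 3. The summed CPM of 5 pigment epithelium and melanocyte markers was 90.9 to 133 with PBS, 33.2 to 42.2 after fluvastatin and 25.4 to 46.8 after MBV. Only Rpe65 of these 5 did not fall on average, at 4.64, 6.64 and 6.08 CPM in the same order, with overlapping libraries. For 3 lens markers the sum was 32.4 to 71.8 with MBV and 0.0379 to 9.42 in the other 6 libraries. For 4 monocyte markers it was 49.3 in MBV replicate 3 and 2.44 to 9.62 in the other 8.

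When an axon is cut or crushed, the kinases DLK and LZK activate a MAP kinase relay that ends in JNK, and JNK phosphorylates c-Jun, the product of Jun. In retinal ganglion cells (RGCs), whose axons form the optic nerve, this relay is known to switch on both a death programme and a growth programme, with Jun, Atf3, Sox11 and Mef2a among its nuclear effectors. Stat3 acts downstream of the cytokine receptor gp130 in neurons and glia, Smad1 downstream of bone morphogenetic protein (BMP) receptors, Cebpg as a partner of ATF4, and Creb5 as a relative of ATF2. Kinase activity is set by protein level and phosphorylation, which RNA counts do not measure. In whole retina, fewer cells of a type and less RNA per cell cannot be told apart.

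Jun, Atf3 and Creb5 encode proteins of the AP-1 and ATF/CREB families, so the members' own promoters were searched for the letters these families bind. RefSeq promoters matched all 10 members in 12 windows of the 250 bases before a transcription start (placed on GRCm39 by an exact match of the sequence). The AP-1 motif TGANTCA is held by 6.75% of 32851 promoters of that length, the ATF/CREB motif TGACNTCA by 7.49% and the STAT motif TTCCNGGAA by 0.913%, each on either strand and with overlapping matches counted. The ATF/CREB letters stood in 1 window each of Jun, Sox11 and Map3k12 and in both windows of Creb5, and the AP-1 letters stood in the second window of Creb5. No window of a member held the STAT letters. The match of Map3k12 and the AP-1 match of Creb5 lay inside annotated exons and are not printed. The matches of Jun, Sox11 and the first start of Creb5 are printed because they lie 42 to 45 bases before a start, outside the exons of their genes. They run 5′ to 3′ on the strand of the gene, with the motif in capitals and up to 30 bases on each side: Jun at chr4:94940467-94940534 on the minus strand, Sox11 at chr12:27392722-27392789 on the minus strand and Creb5 at chr6:53264213-53264254 on the plus strand. A match of letters is a description and not a binding site.
Jun: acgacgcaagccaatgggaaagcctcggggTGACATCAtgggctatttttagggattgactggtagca
Sox11: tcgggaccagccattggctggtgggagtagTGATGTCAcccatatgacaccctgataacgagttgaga
Creb5: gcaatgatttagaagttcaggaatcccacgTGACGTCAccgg

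Per kilobase of annotated exon, the member with the highest level was Jun, at a mean of 25.8 CPM per kb and 20.0 to 30.4 over the 9 libraries. Stat3 followed at 14.2, with 8.30 to 23.7, so their ranges overlapped. Map3k13 at 12.7, Mef2a at 12.3, Cebpg at 10.9, Atf3 at 10.6 and Map3k12 at 10.0 CPM per kb lay close together, and each neighbour in this order overlapped the next. Sox11, at 7.69 and 6.47 to 9.59 CPM per kb, still overlapped Map3k12, at 8.09 to 11.6. Smad1 lay lower at 3.59 to 4.40 CPM per kb and Creb5 lowest at 0.403 to 0.982, neither overlapping its neighbour above. These lengths join every exon of GENCODE M39, and for Creb5 they come to 25.0 kb, so rarely used exons lower a gene's place.

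**Figure D1:**
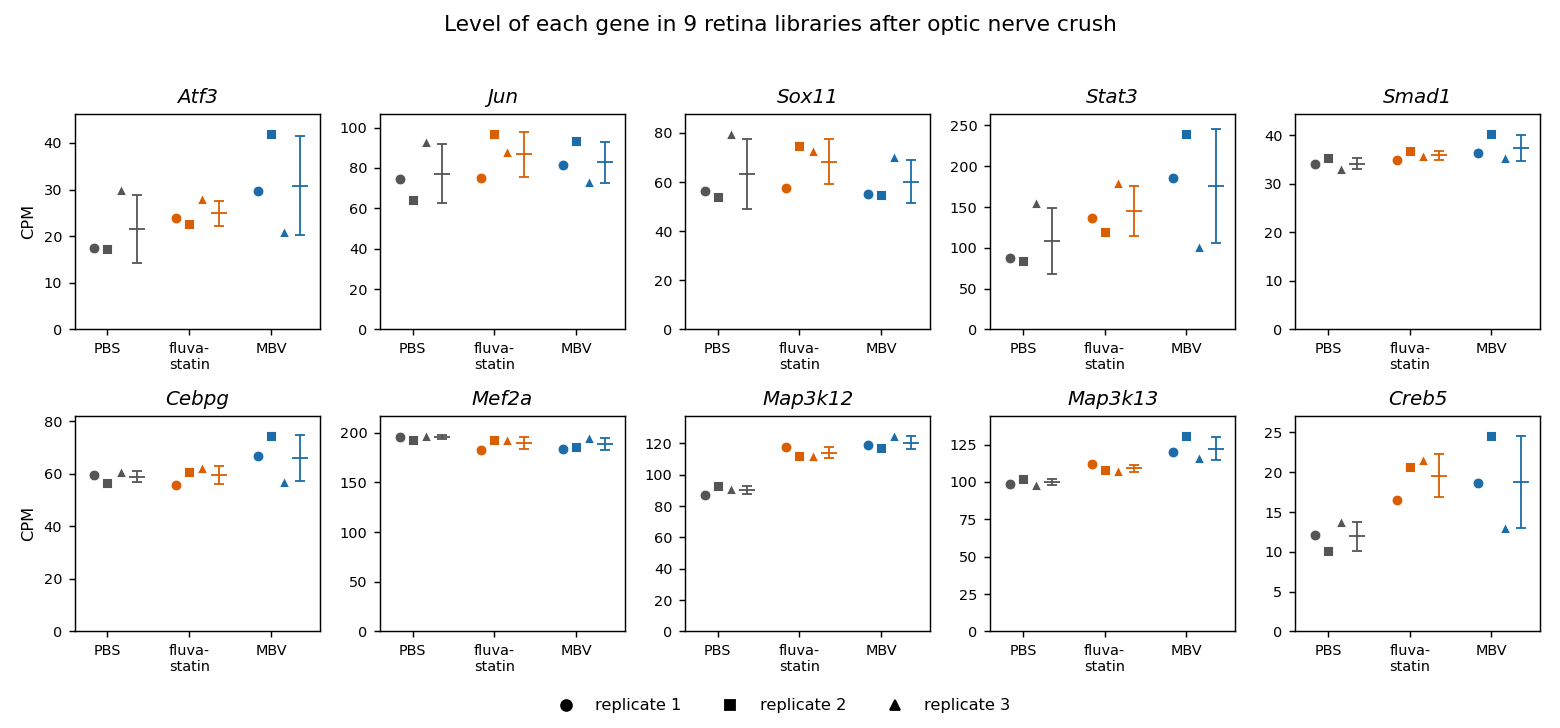
Level in CPM (vertical axes from 0) of the 10 genes in the PBS, fluvastatin and MBV groups; each symbol is a library, and the bar beside it the mean and SD of 3. Map3k12 lies at 87.4 to 92.9 CPM with PBS and at 112 to 125 CPM in the 6 treated libraries, while Stat3 spans 101 to 240 CPM within MBV alone.

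Stat3, the transcription factor of the gp130 receptors, was at 87.2, 83.8 and 155 CPM in PBS replicates 1 to 3, at 136, 120 and 180 CPM with fluvastatin and at 185, 240 and 101 CPM with MBV. Its highest library was 2.36 times its lowest within MBV and 1.85 times within PBS, and all 3 groups overlapped. Compared to PBS, the log2 difference was 0.42 with fluvastatin (95% interval -0.11 to 0.95, edgeR FDR 0.216) and 0.68 with MBV (-0.078 to 1.45, FDR 0.144). Neither passed the test. Atf3, an injury-induced factor that is nearly silent in most healthy neurons, was at 17.4, 17.3 and 30.0 CPM with PBS, 24.0, 22.7 and 27.9 after fluvastatin and 29.7, 42.0 and 20.9 after MBV. As for Stat3, PBS replicate 3 stood above the other PBS libraries and MBV replicate 3 below the other MBV libraries. The log2 difference from PBS was 0.21 with fluvastatin (-0.25 to 0.66, FDR 0.471) and 0.51 with MBV (-0.14 to 1.17, FDR 0.195). Neither gene was called with all libraries, and the size of the differences turned on single libraries. Without PBS replicate 3, both genes were higher with fluvastatin than with PBS (Atf3 by 0.51, FDR 0.0114; Stat3 by 0.76, FDR 0.0123). Without MBV replicate 3, both were higher with MBV than with PBS (Atf3 by 0.73, FDR 0.0390, and Stat3 by 0.96, FDR 0.0136). Other omissions shrank the differences. Without fluvastatin replicate 3, those with fluvastatin were 0.12 for Atf3 (edgeR FDR 0.746) and 0.24 for Stat3 (FDR 0.525). Without MBV replicate 2, those with MBV were 0.23 for Atf3 (FDR 0.541) and 0.40 for Stat3 (FDR 0.393).

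Jun, whose product is the main nuclear substrate of JNK, was at 74.6, 63.9 and 93.0 CPM with PBS, 75.2, 97.0 and 87.9 after fluvastatin and 81.6, 93.5 and 73.0 after MBV. The groups overlapped throughout, and with all libraries no comparison came near the threshold. The log2 difference from PBS was 0.17 with fluvastatin (-0.14 to 0.47, FDR 0.379) and 0.093 with MBV (-0.22 to 0.41, FDR 0.628). The fluvastatin difference of Jun was 0.32 without PBS replicate 3 (edgeR FDR 0.0720) and 0.053 without PBS replicate 2 (FDR 0.800). Sox11, a SoxC factor of developing and regrowing neurons, was at 56.2, 53.8 and 79.7 CPM with PBS, 57.7, 74.5 and 72.8 after fluvastatin and 55.3, 54.9 and 70.2 after MBV. Within MBV its order ran the other way from that of Stat3 and Atf3: replicate 3 was the highest library for Sox11 and the lowest for both others. Its log2 difference from PBS was 0.11 with fluvastatin (-0.23 to 0.46, FDR 0.613) and -0.079 with MBV (-0.44 to 0.28, FDR 0.724), and the latter turned to 0.12 without PBS replicate 3. The fluvastatin difference of Sox11 was 0.31 without PBS replicate 3 (FDR 0.0734) and 0.012 without PBS replicate 2 (FDR 0.966).

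Creb5, a factor that binds DNA with Jun, was at 12.1, 10.1 and 13.7 CPM with PBS, 16.5, 20.7 and 21.5 after fluvastatin and 18.7, 24.6 and 13.0 after MBV. All fluvastatin libraries lay above all PBS libraries, and Creb5 was 1.64-fold higher with fluvastatin (log2 0.71 ± 0.132 SE, edgeR FDR 0.00705). With MBV, replicates 1 and 2 lay above PBS and replicate 3 inside its range. The log2 difference of 0.64 (0.15 to 1.14) missed the threshold with an FDR of 0.0511, and without MBV replicate 3 it was 0.85 with an FDR of 0.00275. DESeq2 (FDR 0.00744), no filter on low counts (FDR 0.0457) and a fit of all 9 libraries (FDR 0.0328) also called it. RLE size factors (FDR 0.0512) and a block for the replicate number (FDR 0.109) did not. Leaving out any other single library did not call it either (FDR 0.0626 to 0.150). The gene has the lowest counts of the members, 296 to 555 in a library.

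These 5 factors varied more between libraries of a group than most genes did. The SD within groups on the log2(CPM + 0.5) scale was 0.495 for Stat3, larger than in 98.2% of 15240 genes, 0.394 for Atf3 (96.6%), 0.308 for Creb5 (93.5%), 0.242 for Sox11 (87.6%) and 0.215 for Jun (83.7%). The median gene had an SD of 0.102. At the other end were Map3k12 with 0.0447, a value that 9.47% of genes undercut, and Mef2a with 0.0373, which 5.09% undercut. Stat3 and Atf3 ordered the 3 libraries identically inside every group. Of 15240 genes, 219 (1.44%) had the order of Stat3, and among 78 genes of the 7 pathway lists described further on there were 10, among them Junb, Fosl2, Creb1, Crem, Cebpd, Il6st, Socs3, Acvr1 and Gadd45a. By list these were 3 of 13 genes of the STAT3 pathway, 4 of 15 AP-1, ATF and CREB partners, 1 of 4 C/EBP genes, 1 of 12 BMP pathway genes, 1 of 11 injury-induced genes and none of 14 DLK and JNK genes or 10 SoxC, MEF2 and KLF genes. Il6st encodes the receptor gp130, and Socs3 the feedback inhibitor that STAT3 induces. Socs3 was at 7.13, 6.27 and 17.1 CPM with PBS, 14.1, 11.8 and 25.6 after fluvastatin and 17.8, 28.4 and 5.24 after MBV. Cebpd, a C/EBP factor of acute inflammation, was at 11.3, 9.92 and 41.2 CPM, then 34.6, 31.7 and 61.1, then 73.0, 107 and 19.5. This order and these genes were picked out after their values had been seen.

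**Figure D2:**
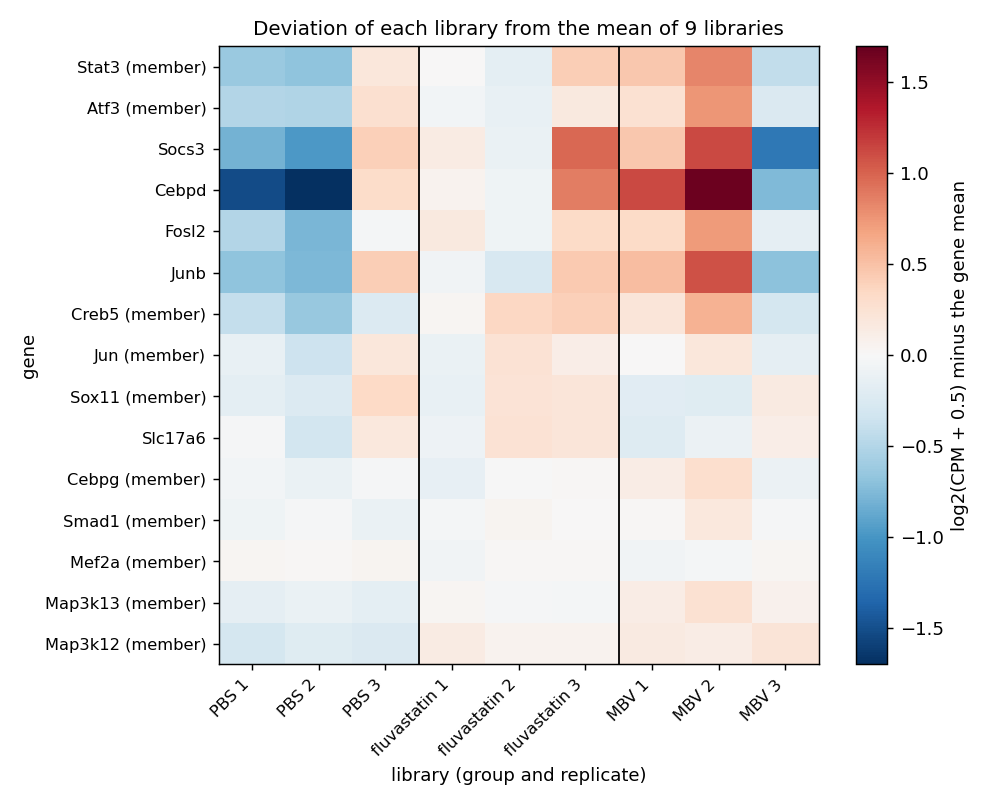
Deviation of each library from the gene's mean over 9 libraries, in log2(CPM + 0.5) (colour), for the 10 members and 5 other genes (rows) in each library (columns, groups split by black lines). Within groups, Stat3, Atf3, Socs3, Cebpd, Fosl2 and Junb are high in PBS replicate 3 and MBV replicate 2 and low in MBV replicate 3. Map3k12 and Map3k13 are lower in every PBS library than in every treated library and vary little within a group.

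Markers of other cell types were set beside this order. The summed CPM of 5 Müller glia and astrocyte markers, to which Glul contributed most, was 3150, 3060 and 2530 with PBS, 2530, 1620 and 1470 after fluvastatin and 1700, 1250 and 2440 after MBV. In each group the library with the highest Stat3 had the lowest sum. The full order was the reverse of that of Stat3 within MBV but not within PBS or fluvastatin. None of the 5 markers had the order of Stat3. Gfap, the intermediate filament of reactive glia and 1 of the 5, was by contrast highest in the libraries with the highest Stat3, at 68.6, 103 and 76.0 CPM. So was Vim, at 177, 276 and 322 CPM. Glul and Aqp4 were lowest in those libraries, and Rlbp1 was neither highest nor lowest in all of them. The photoreceptor markers Gnat1, Pde6b and Rcvrn were each lowest in those libraries. By group they averaged 8260, 8480 and 7680 CPM for Gnat1, 1590, 1370 and 1240 CPM for Pde6b and 569, 814 and 685 CPM for Rcvrn with PBS, fluvastatin and MBV. The summed CPM of 5 microglia and macrophage markers was 41.1 to 50.5 with PBS, 36.8 to 44.1 after fluvastatin and 41.1 to 59.5 after MBV, with the highest value in MBV replicate 3. The part of any of these in the levels of Stat3, Atf3 or the other members was not tested.

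Map3k12, the gene of DLK, was at 87.4, 92.9 and 90.7 CPM with PBS, 118, 112 and 112 CPM after fluvastatin and 119, 117 and 125 CPM after MBV. All 6 treated libraries lay above all PBS libraries. It was 1.26-fold higher with fluvastatin (log2 0.33 ± 0.0442 SE, edgeR FDR 0.00244) and 1.32-fold higher with MBV (log2 0.40 ± 0.0441 SE, FDR 0.00112) than with PBS. Map3k13, the gene of the related kinase LZK, was at 98.8, 102 and 98.2 CPM with PBS, 112, 108 and 107 CPM after fluvastatin and 120, 131 and 116 CPM after MBV. It was 1.22-fold higher with MBV than with PBS (log2 0.29 ± 0.0519 SE, FDR 0.00555). With fluvastatin no library overlapped PBS either, but the log2 difference of 0.13 (0.033 to 0.22) had an FDR of 0.0528. RLE size factors called it (FDR 0.0476). DESeq2 (FDR 0.0710), no filter on low counts (0.0800), the replicate block (0.0848) and a fit of all 9 libraries (0.0762) did not. Neither did any fit without 1 library (FDR 0.0699 to 0.156). The calls of Map3k12 in both comparisons, of Map3k13 with MBV and of Creb5 with fluvastatin held without each library in turn.

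The ratio of Map3k12 to Map3k13 counts in a library does not depend on library size. It was 0.884, 0.910 and 0.923 with PBS, 1.05, 1.03 and 1.05 after fluvastatin and 0.988, 0.896 and 1.07 after MBV. Fluvastatin libraries lay above PBS libraries by 0.139 on average (two-sided exact permutation p = 0.1, the smallest possible with 3 against 3), and MBV libraries overlapped both other groups (p = 0.3 against PBS and 0.4 against fluvastatin). Of the exon bases of Map3k12, 1688 of 10801 (15.6%) overlap exons of Pcbp2 on the other strand, an RNA-binding protein gene with 169967 counts over the 9 libraries against 25004 for Map3k12. Whether counting used the strand is not given in the sources used here, so reads in the overlap cannot be told apart. Pcbp2 itself averaged 752 CPM with PBS, 712 after fluvastatin and 714 after MBV, and its log2 difference from PBS was -0.080 and -0.084 (FDR 0.187 and 0.261).

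The calls of Map3k12 and Map3k13 need to be read against the whole table. With fluvastatin against PBS, 2 of 10 members were called, and 25.0% of the 15129 genes tested were called. With MBV against PBS, 2 of 10 were called, against 33.7% of 15193 genes. The members called were all higher. Of all genes called, 1857 of 3784 were higher with fluvastatin and 2452 of 5116 with MBV, which is 12.3% and 16.1% of the genes tested. The groups did not overlap for 3 of 10 members with fluvastatin and 2 of 10 with MBV, against 43.3% and 49.0% of all genes. By these counts the members were not called more often than genes at large. A smaller p than that of Map3k12 was found for 1.85% of genes with fluvastatin and 1.55% with MBV, than that of Map3k13 for 10.7% with MBV, and than that of Creb5 for 7.20% with fluvastatin. The members' median log2 difference was 0.15 with fluvastatin and 0.22 with MBV, and that over all genes was -0.0015 and 0.0050.

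Smad1, Cebpg and Mef2a were called in neither comparison with PBS, and Smad1 and Mef2a also varied little within groups, with an SD of 0.0680 and 0.0373 on the log2 scale. Smad1, the signal carrier of BMP receptors, was at 34.0, 35.3 and 33.0 CPM with PBS, 34.9, 36.8 and 35.7 after fluvastatin and 36.3, 40.3 and 35.3 after MBV. Its log2 difference from PBS was 0.068 with fluvastatin (-0.050 to 0.19, FDR 0.360) and 0.12 with MBV (-0.028 to 0.27, FDR 0.181). Mef2a, a factor of activity-dependent transcription that DLK signalling acts on in RGCs, was at 196, 193 and 197 CPM with PBS, 183, 193 and 193 after fluvastatin and 184, 186 and 195 after MBV. Its intervals were the narrowest, -0.13 to 0.042 with fluvastatin and -0.15 to 0.023 with MBV, so changes beyond 0.15 on the log2 scale lie outside both. Cebpg, the partner of ATF4, was at 59.5, 56.6 and 60.5 CPM with PBS and 55.6, 60.7 and 62.0 with fluvastatin, a log2 difference of 0.013 (FDR 0.884). With MBV it was at 66.9, 74.5 and 57.0 CPM, where replicate 3 lay inside the PBS range. That difference was 0.16 (FDR 0.204). It was 0.26 without MBV replicate 3 (FDR 0.0102) and 0.066 without MBV replicate 2 (FDR 0.549). Mef2a shares 6.97% of its exon bases with Lysmd4 and Stat3 1.41% with Stat5a, both on the other strand and both with fewer counts than the member.

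**Figure D3:**
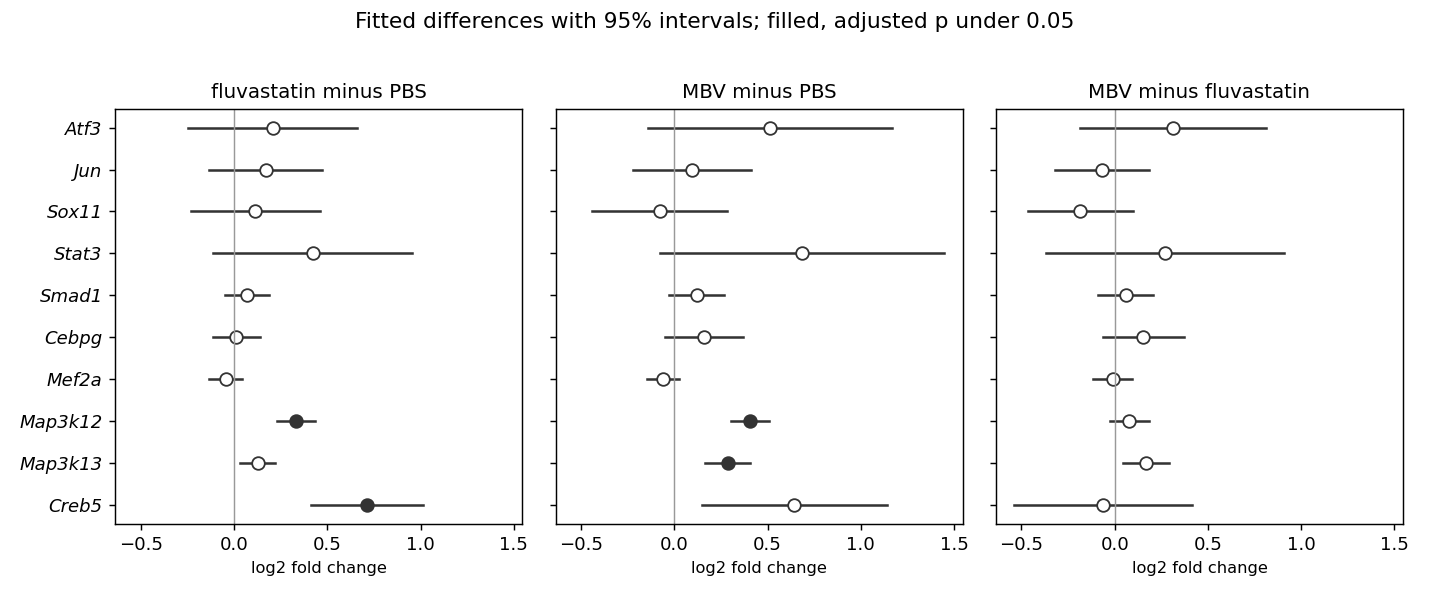
Log2 fold change (horizontal axis) of the 10 genes with its 95% interval in 3 comparisons, filled where the edgeR FDR was under 0.05. Map3k12 is filled in both comparisons with PBS, Map3k13 with MBV and Creb5 with fluvastatin, and no symbol is filled for MBV minus fluvastatin.

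MBV against fluvastatin, the comparison within a run of library numbers, called none of the 10 members by edgeR and none by DESeq2, and 1 member, Map3k13, had an unadjusted p under 0.05. It called 5 of 15045 genes (0.0332%). They included Fdps, Insig1 and Fdft1, genes of the sterol pathway that fluvastatin inhibits, all lower with MBV, and Usp2, higher with MBV, and they are named after their values had been seen. Map3k13 was 1.12-fold higher with MBV than with fluvastatin (log2 0.17, 0.043 to 0.29, FDR 0.313 over all genes by edgeR). Its groups did not overlap, as for 18.6% of genes. For Map3k12 the log2 difference was 0.079 (-0.027 to 0.18, FDR 0.511). The intervals were widest for Stat3, at 0.27 (-0.37 to 0.91, FDR 0.718), for Atf3, at 0.31 (-0.19 to 0.81, FDR 0.580), and for Creb5, at -0.062 (-0.54 to 0.41, FDR 0.926). Those of Jun (-0.32 to 0.18), Sox11 (-0.47 to 0.097), Cebpg (-0.063 to 0.37), Smad1 (-0.088 to 0.20) and Mef2a (-0.11 to 0.095) also included 0, with FDRs of 0.533 to 0.95. The members' median log2 difference was 0.069 and that of all genes 0.0039.

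The other genes of these pathways were read from 7 lists with 80 entries, of which 79 were tested. Fluvastatin against PBS called 30 entries, 21 of them higher, and MBV against PBS called 39, 27 of them higher. Over all genes, 25.0% and 33.7% were called and 12.3% and 16.1% were called higher. The counts in each list are to be read against these shares. With fluvastatin, 0 of 4, 2 of 13 and 2 of 11 genes called are less than 25.0%. With MBV, 1 of 4 and 3 of 11 genes called are less than 33.7%. MBV against fluvastatin called none by edgeR, 13 had an unadjusted p under 0.05, and DESeq2 called 1, the factor Klf9. Klf9 was 1.25-fold higher with MBV than with fluvastatin (FDR 0.00153 by DESeq2 and 0.167 by edgeR). Of the list genes with values here, Mycbp2, Crebbp, Cebpz, Lifr, Bmpr2, Mef2d and Atf5 are named as those with the highest mean CPM in their list, and the others were chosen after their values had been seen. Every difference from PBS in the lists lies across the 2 runs of library numbers.

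Around DLK and JNK, 6 of 14 genes were higher and 2 lower with fluvastatin, and 6 were higher and 3 lower with MBV, with a list median of 0.13 and 0.11 on the log2 scale. The higher genes included Map4k4, which encodes a kinase upstream of DLK, at 1.27 times PBS with fluvastatin (edgeR FDR 0.00417) and 1.36 times with MBV (FDR 0.00173). They also included Mapk8ip3, the axonal transport scaffold JIP3, at 1.27 and 1.17 times PBS, and Map2k7, the JNK kinase MKK7, at 1.17 and 1.15 times. The lower genes included Mapk8, which encodes JNK1, at 0.840 and 0.894 times PBS. Mapk10, which encodes the neuronal JNK3, was 1.16-fold higher with fluvastatin. Mycbp2, the ubiquitin ligase that limits DLK protein, averaged 541 CPM with PBS, 540 CPM after fluvastatin and 563 CPM after MBV and was not called (FDR 0.957 and 0.455).

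Among the AP-1, ATF and CREB partners of Jun and Atf3, 5 of 15 were higher and none lower with fluvastatin, and 6 were higher and 1 lower with MBV. With fluvastatin, 6 of the 15 had an unadjusted p under 0.05 and DESeq2 called 6. Atf5, a stress-response factor that is also on the list of genes downstream of DLK, was at 45.3, 40.6 and 45.2 CPM with PBS, 58.4, 96.7 and 101 after fluvastatin and 98.6, 143 and 71.8 after MBV. It was 1.95 and 2.38 times PBS (FDR 0.00688 and 0.00454). Atf4, the master factor of the integrated stress response and partner of Cebpg, was at 1.18 and 1.29 times PBS, and the coactivator Crebbp at 1.13 and 1.09 times. Fosl2 was at 1.48 and 1.69 times PBS, with libraries that overlapped PBS in both groups, and DESeq2 did not call it with MBV (FDR 0.0631). Of the C/EBP family, 4 of 5 genes were in the table. None was called with fluvastatin by either tool and none had an unadjusted p under 0.05. With MBV, Cebpa was called, from 1.81 CPM with PBS to 3.81 CPM. Cebpz averaged 47.7, 45.5 and 44.7 CPM in the 3 groups and was not called.

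In the STAT3 pathway, 2 of 13 genes were higher with fluvastatin, and 5 were higher and 2 lower with MBV. Lifr, the receptor chain for leukaemia inhibitory factor and ciliary neurotrophic factor, was at 1.18 and 1.23 times PBS (FDR 0.00342 and 0.00137). Pias3 was at 1.20 and 1.21 times PBS (edgeR FDR 0.0212 and 0.0293). Il6ra, the interleukin-6 receptor chain, averaged 1.56 CPM with PBS and 3.86 CPM with MBV (FDR 0.00782), and Jak1 and Jak2, the kinases that activate STAT3, were at 0.909 and 0.892 times PBS with MBV, and Tyk2, a kinase of the same family, was at 1.16 times. DESeq2 kept the call of Jak1 (FDR 0.0494) and not those of Jak2 (0.0512) and Tyk2 (0.0756). Socs3 and Il6st were not called in any comparison.

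Around Smad1, 6 of 12 BMP pathway genes were lower with fluvastatin and 5 with MBV, and edgeR called none higher in either. An unadjusted p under 0.05 was found for 8 and 6 of the 12. DESeq2 called 6 in each, all lower with fluvastatin, and 5 lower and 1 higher with MBV. The higher one was Acvr1, a type I BMP receptor, at 1.26 times PBS (FDR 0.0415 by DESeq2 and 0.0655 by edgeR). Id1, Id2 and Id3, inhibitors of differentiation that BMP and SMAD proteins induce, were among them. Id3 was at 13.3, 10.6 and 14.8 CPM with PBS, 6.81, 3.21 and 4.97 after fluvastatin and 5.12, 4.67 and 4.64 after MBV, or 0.386 and 0.372 times PBS (FDR 0.00529 and 0.000962). Id2 was at 0.587 and 0.526 times PBS. Id1 was called with fluvastatin at 0.477 times PBS, and with MBV it was at 0.744 times PBS (FDR 0.174). The receptors Bmpr1a, Bmpr1b and Bmpr2 were lower in both comparisons, with Bmpr2 at 415 CPM with PBS, 361 CPM after fluvastatin and 365 CPM after MBV. The pigment marker sum was also lower in every treated library than in every PBS library. Of the Müller glia and astrocyte markers, Glul averaged 2330 CPM with PBS, 1290 CPM with fluvastatin and 1230 CPM with MBV. In the same order Rlbp1 averaged 217, 179 and 168 CPM and Aqp4 165, 115 and 109 CPM. Gfap averaged 45.2, 78.5 and 57.2 CPM and Vim 158, 208 and 232 CPM. Both means were higher after treatment, but the libraries of each treated group overlapped those of PBS for both genes. The part of these markers in the BMP pathway differences was not tested.

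Among the relatives of Sox11 and Mef2a, 6 of 10 genes were higher and 1 lower in each comparison with PBS. Sox4, the other main SoxC factor of RGCs, was at 24.3, 20.9 and 24.0 CPM with PBS, 28.2, 30.3 and 32.6 after fluvastatin and 38.7, 40.0 and 32.2 after MBV, or 1.32 and 1.59 times PBS (FDR 0.00852 and 0.00226). Sox12 was at 1.25 and 1.29 times PBS. Mef2d was at 1.32 and 1.28 times PBS, and Mef2c at 0.779 and 0.631 times PBS. Of the KLF factors, Klf6 and Klf7 were higher in both comparisons, Klf6 at 1.28 and 1.42 times PBS and Klf7 at 1.16 and 1.20 times. Klf9 was called higher with MBV, at 1.14 times PBS (edgeR FDR 0.00952), and not called with fluvastatin, at 0.920 times (FDR 0.130). Klf4, at 1.18 and 1.46 times PBS, was called in neither (FDR 0.509 and 0.0901). Of 11 injury-induced genes downstream of DLK, 2 were higher with fluvastatin and 3 with MBV. Hrk, a BH3-only gene of the neuronal death programme, was at 13.0, 13.2 and 12.8 CPM with PBS, 21.2, 26.8 and 17.2 after fluvastatin and 15.4, 17.7 and 17.8 after MBV, or 1.67 and 1.30 times PBS. Gap43 and Sprr1a, of the growth programme, were called in no comparison by edgeR. Gap43, of the growth cone, was at 30.7 to 36.1 CPM with PBS, 33.6 to 39.5 after fluvastatin and 31.2 to 37.8 after MBV. Sprr1a, a classic regeneration gene, was at 5.35 to 8.96 CPM with PBS, 4.67 to 8.30 after fluvastatin and 4.35 to 6.05 after MBV, where DESeq2 called it lower at 0.658 times PBS (FDR 0.0319 by DESeq2 and 0.0651 by edgeR).

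**Figure D4:**
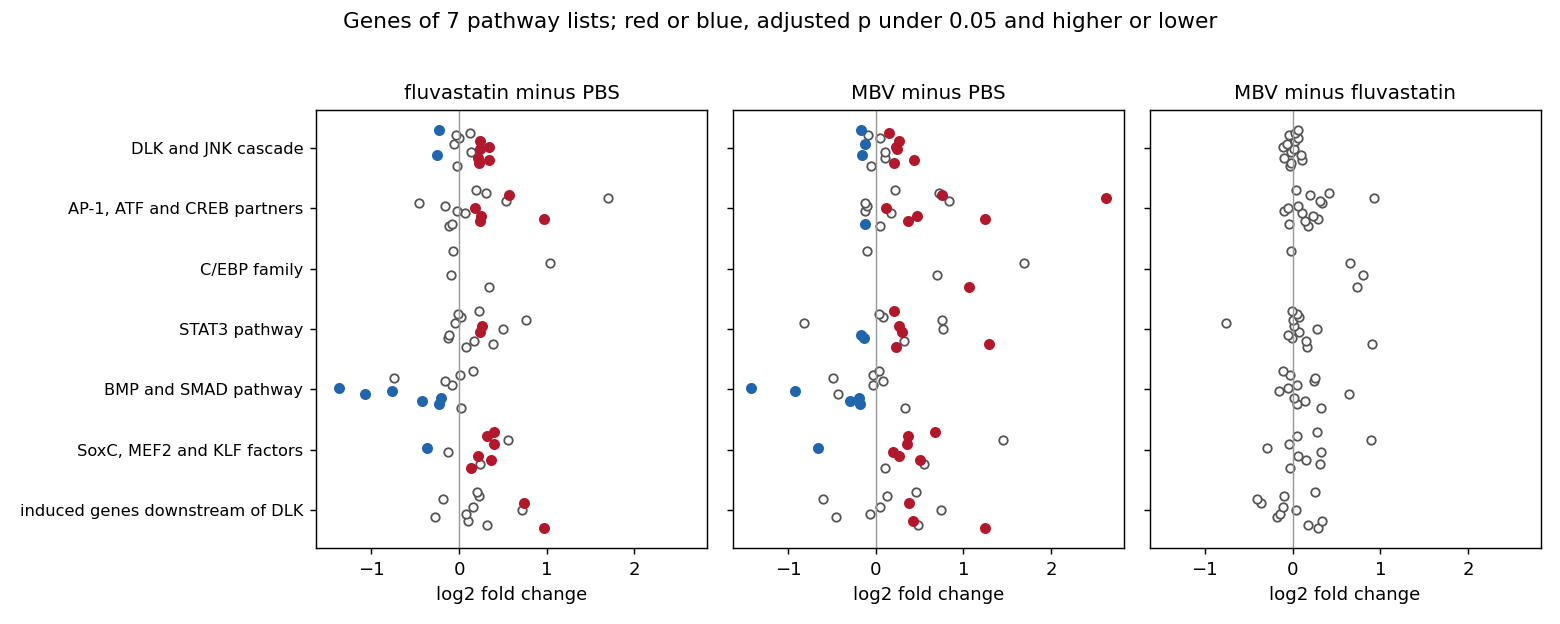
Log2 fold change (horizontal axis) of each tested gene of the 7 lists (rows; 1 symbol per gene) in 3 comparisons, red where higher and blue where lower at an edgeR FDR under 0.05, open otherwise. In the BMP and SMAD row, 6 of 12 symbols are blue for fluvastatin minus PBS and 5 for MBV minus PBS, with none red, red ones prevail in the rows of the DLK and JNK cascade and of the SoxC, MEF2 and KLF factors, and all symbols are open for MBV minus fluvastatin.

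The genes most like 4 of the members were sought by the smallest root mean square difference of log2(CPM + 0.5), each gene centred on its own mean, among 11705 genes of at least 5 CPM over the 9 libraries. For Sox11 these were Slc17a6, the glutamate transporter of RGCs, at a distance of 0.0840, and Dok5 at 0.0923. Slc17a6 was at 97.2, 79.3 and 112 CPM with PBS, 92.8, 117 and 114 after fluvastatin and 84.9, 91.8 and 107 after MBV. The summed CPM of 7 RGC markers was 531 to 654 with PBS, 591 to 792 after fluvastatin and 553 to 679 after MBV, and its part in the level of Sox11 was not tested. For Atf3 the nearest were F3, the gene of tissue factor, at 0.115 and Tnfrsf1a, a receptor of tumour necrosis factor, at 0.118. For Jun they were Nrp1, a semaphorin and VEGF co-receptor, at 0.0670 and Ier5l at 0.0742. For Map3k12 they were Casz1, a zinc finger factor, at 0.0310 and Ube2o, a ubiquitin-conjugating enzyme, at 0.0408. Casz1 was at 420 to 450 CPM with PBS, 521 to 553 CPM after fluvastatin and 547 to 586 CPM after MBV.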

How the data were processed

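The authors sequenced total RNA of whole retinas and used CLC Genomics Workbench for alignment to GRCm39 and counts per gene. They deposited 4 tables of raw counts, each for 2 groups. In the 3 tables used, the 9 library columns that were repeated between tables were identical. The 6 count columns of the table for the combined treatment against PBS name no library and were not used. The fold changes, p-values and FDRs of the authors' own comparisons were not used either. Tests planned with the combined group were therefore not run. Genes with more than 10 counts in at least 2 libraries of 1 group were kept, scaled by TMM and tested with edgeR 4.0.16 in R 4.3.3 in fits of 2 groups, without a replicate block, after a test on simulated data. Benjamini-Hochberg adjustment ran over all genes tested, and all 10 members passed the filter in every comparison. Intervals are at 95%. DESeq2 1.42.0 and other settings served as alternatives. The coefficient of variation between replicates was 7.73% to 9.96%. All members are named. Of each list, genes called for MBV against fluvastatin and the gene of highest mean CPM were to be named. The members, lists and motifs were chosen with earlier results of these data known. Exons are from GENCODE M39, and promoters from RefSeq (GRCm38.p6). The precision given covers counting and sample spread, since reads carry no molecular identifiers. Results for some genes are not reported here.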

Additional observations from a re-analysis of the deposited data

How the results depend on the processing

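Calls of single members depended mostly on PBS replicate 3 and MBV replicate 3. With 1 library left out, fluvastatin against PBS called 2 to 4 members and 1678 to 4361 genes (1678 without PBS replicate 1), and MBV against PBS called 2 to 6 members and 2744 to 5629 genes (2744 without PBS replicate 1). MBV against fluvastatin called 0 members in every setting run, and 5 genes became 126 with DESeq2, 1 with RLE size factors, 11 with no filter on low counts and 16 in 1 fit of all libraries, and 0 to 23 with 1 library left out. Leaving out 1 library also turned the sign of small differences. For MBV against fluvastatin these ran from -0.16 to 0.019 for Jun, -0.020 to 0.54 for Stat3, -3.02e-05 to 0.096 for Smad1, -0.035 to 0.0084 for Mef2a and -0.30 to 0.14 for Creb5. For fluvastatin against PBS, Cebpg ran from -0.017 to 0.059. For MBV against PBS, Jun ran from -0.023 to 0.24 and Sox11 from -0.20 to 0.12. The cause was not tested. No other setting turned the sign of a member's difference. Members with intervals over 0.5 wide (Stat3, Atf3, Creb5, Sox11, Jun) could differ between groups without being called at 3 libraries a group.

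Libraries with the same replicate number did not deviate together (correlations of -0.36 to 0.15), so the numbers were not taken as pairs. With the replicate block, MBV against fluvastatin called 0 genes, fluvastatin against PBS 3644 and MBV against PBS 4050. The block added 1 member call, Stat3 for fluvastatin against PBS (log2 0.46, FDR 0.00761). The alternatives for the comparisons that need the combined group were not run.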
